A study of Mus musculus with 30 samples.

Results

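Genes of iron storage, iron transport and heme breakdown were followed through platelets and peripheral blood mononuclear cells (PBMCs) of mice carrying B16F10 melanoma cells. The 9 genes were chosen by name out of the 54532 genes counted: the ferritin chains Fth1 and Ftl1, the ferritin receptor Ncoa4, the exporter Slc40a1, the importers Tfrc, Slc11a2 and Slc11a1, and the heme oxygenases Hmox1 and Hmox2. B16F10 is a mouse melanoma line. All animals were female C57BL/6 mice of 6 to 8 weeks. They were injected under the skin of the right flank with 100 µl of buffer alone (C group), with a suboptimal 2000 cells (S group, labelled early tumor) or with an optimal 100000 cells (O group, labelled large tumor), and blood was taken on day 14. Each group gave 5 RNA-seq libraries from platelets and 5 from PBMCs, 30 in all, and each library pooled several mice. By the labels, pools held 5 or 10 mice in C platelets, 10 in S platelets (the methods differ slightly for the S group), 4 or 5 in C and S PBMCs, and 3, 4, 5, 3 and 5 in the O group of both tissues, so O libraries 1 and 4 held the fewest animals.

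Cells take up iron through the transferrin receptor, encoded by Tfrc, which binds transferrin at the surface and releases its iron inside the endosome. Slc11a2 (DMT1) carries the metal out of the endosome into the cytosol, and its relative Slc11a1 (NRAMP1) does so from the phagosomes of macrophages and neutrophils. Spare iron is stored inside a shell built of ferritin heavy (Fth1) and light (Ftl1) chains, NCOA4 delivers that shell to the lysosome for breakdown, and ferroportin (Slc40a1) is the only known iron exporter of mammalian cells. Heme oxygenases open the heme ring and free its iron: HMOX1 is inducible and is high in macrophages that clear red cells, and HMOX2 is constitutive. Platelets have no nucleus and carry RNA from their megakaryocyte, whereas young red cells are rich in transferrin receptor, ferritin and heme synthesis enzymes.

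Several of these mRNAs carry an iron-responsive element, a stem-loop bound by iron regulatory proteins when iron is scarce, which blocks translation from a 5′ position and stabilises the message from a 3′ position. The loops are shown for the members that hold this form of the element, and other forms, such as that known for Slc11a2, are not matched by the pattern used. The stem-loop was searched for on the transcript strand as 17 bases: an unpaired C, 5 bases, the loop CAGTGN, and 5 bases that pair with the 5 before the loop. It was found in 4 of the 9 members, against 0.755% of 21179 genes with an annotated UTR. The loop is in capitals and the positions are GRCm38.
Fth1 5′ UTR, chr19:9982738-9982754, plus strand: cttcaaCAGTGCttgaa
Ftl1 5′ UTR, chr7:45459785-45459801, minus strand: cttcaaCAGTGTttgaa
Slc40a1 5′ UTR, chr1:45925471-45925487, minus strand: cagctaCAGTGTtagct
Tfrc 3′ UTR, chr16:32631225-32631241, plus strand: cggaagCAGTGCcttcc
Tfrc 3′ UTR, chr16:32631604-32631620, plus strand: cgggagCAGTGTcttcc
Tfrc 3′ UTR, chr16:32631669-32631685, plus strand: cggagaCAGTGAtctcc
Tfrc 3′ UTR, chr16:32631716-32631732, plus strand: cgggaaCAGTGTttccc
Both ferritin chains and the exporter carried 1 loop each, in the 5′ UTR, and Tfrc carried 4, all in the 3′ UTR. A match is a description of the letters and says nothing of binding in these cells.

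Platelet libraries held 12259036 to 25360080 counts and PBMC libraries 13390983 to 15973449. The 13 platelet markers summed to 13980 to 67503 in platelets, in CPM (counts scaled to the size of the library), and to 1148 to 12991 in PBMCs, on the scale of each tissue. The 11 T cell markers summed to 138 to 365 CPM in platelets and to 1011 to 1763 in PBMCs, so platelet libraries were not free of leukocyte RNA. Neither tissue was free of red cell RNA. Hemoglobin genes took 4.02% to 39.0% of the counts in platelets and 3.23% to 24.5% in PBMCs. The 13 erythroid markers found, all with counts in every library, summed to 29418 to 94163 CPM in the C group, 30753 to 86435 in the S group and 62203 to 510917 in the O group of PBMCs. In PBMCs the median hemoglobin share was 4.64% in the C group, 5.10% in the S group and 18.2% in the O group. Library 1 of the O group stood apart in both tissues, with the highest hemoglobin share of each (39.0% and 24.5%). It also had the highest sum of the 13 neutrophil markers, of which 9 to 13 had counts in each library. That sum was 3756 CPM in platelets, where the others spanned 150.1 to 749.8, and 7326 in PBMCs, where the C group spanned 409.6 to 2366 and the S group 429 to 3723. O library 4 had a hemoglobin share of 19.2% and a neutrophil sum of 5702 CPM in PBMCs, but a hemoglobin share of only 4.29% in platelets. Values that involve the O group are therefore also given without library 1, or without both, where that ends or makes a call or moves the value. In bulk RNA, fewer cells of a type and less RNA per cell cannot be told apart.

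**Figure D1:**
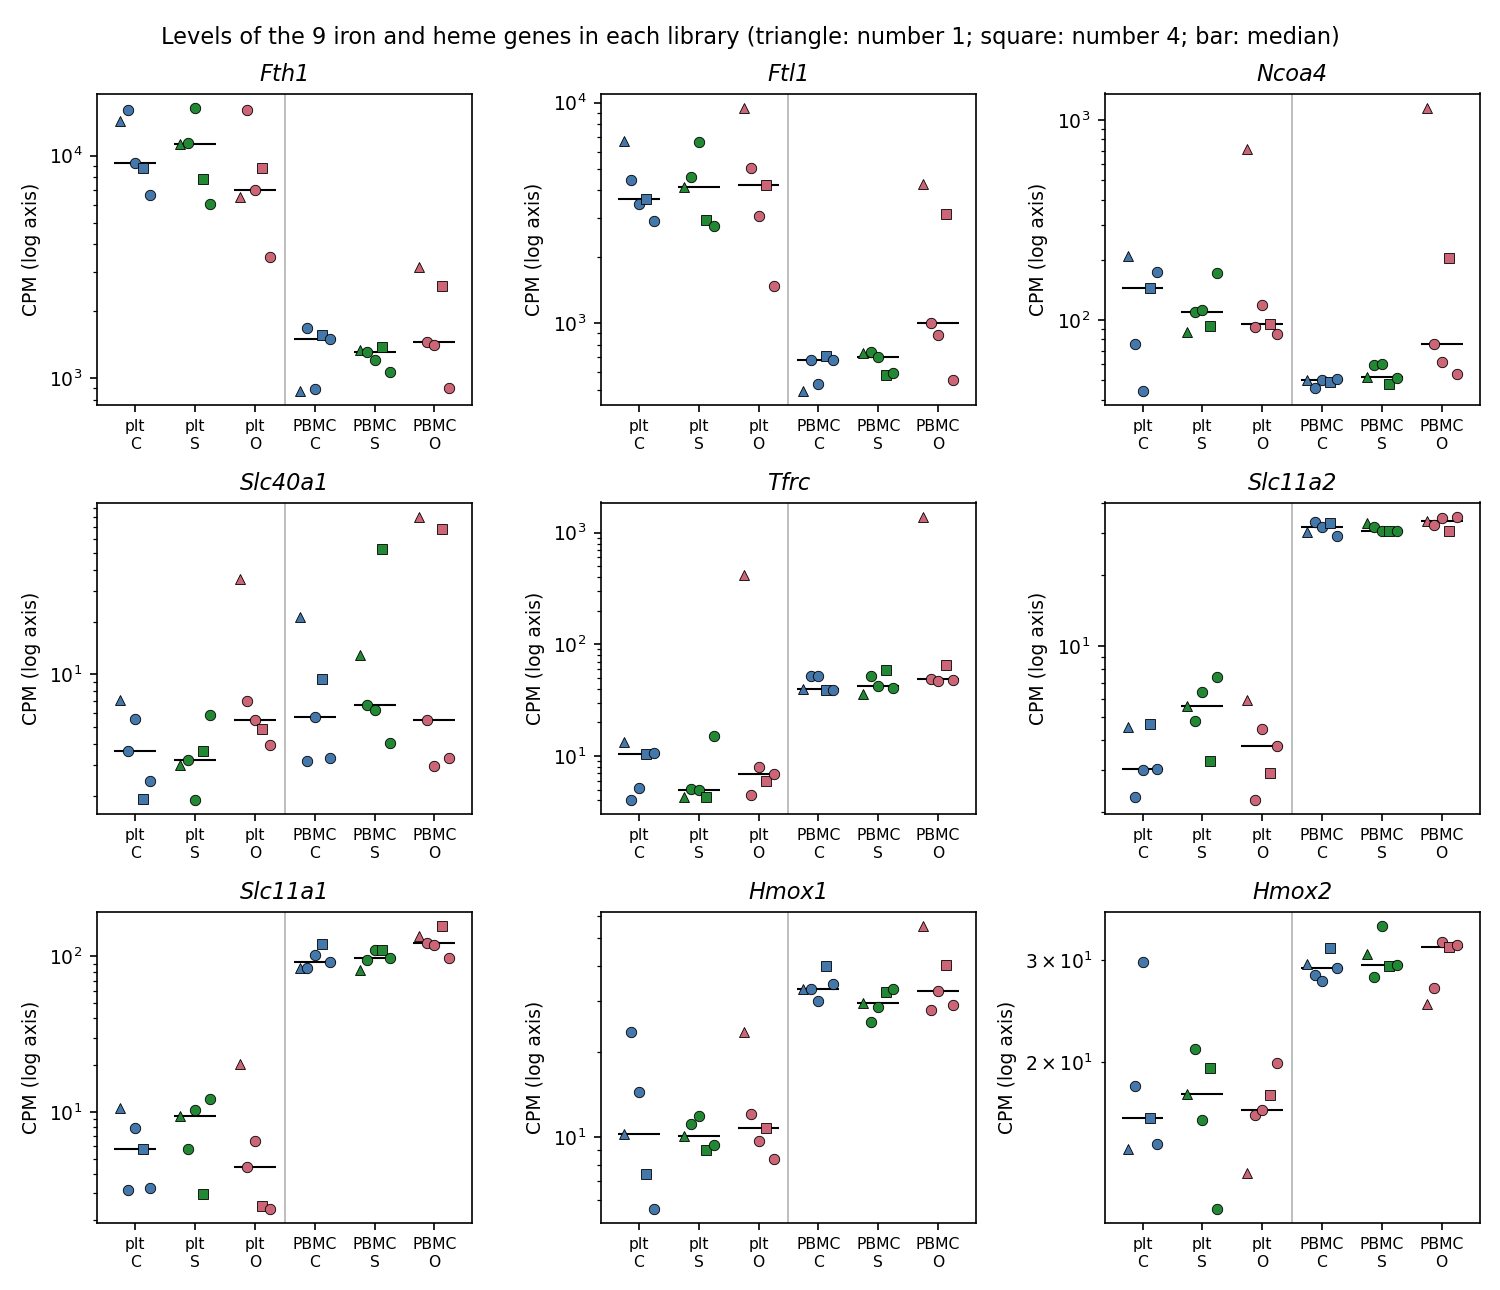
Level of each of the 9 genes in every library, in CPM on a log axis, by group (C, S, O) within platelets and PBMCs. Points are libraries, triangles mark libraries numbered 1, squares those numbered 4, and bars are medians. Tfrc and Ncoa4 of O library 1 lie far above all other libraries of their tissue, and Fth1 is separated between the tissues.

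The ferritin chains dwarfed the other members in both tissues. Per kilobase of exon, the median CPM in platelets was 3106 for Ftl1 and 2541 for Fth1, then 11.8 for Ncoa4, 7.48 for Hmox2, 5.85 for Hmox1, 1.55 for Slc11a1, 0.962 for Tfrc, 0.705 for Slc11a2 and 0.435 for Slc40a1. In PBMCs, the median CPM per kilobase was 526 for Ftl1 and 399.9 for Fth1, then 27.5 for Slc11a1, 18.6 for Hmox1, 13.3 for Hmox2, 7.70 for Tfrc, 5.54 for Ncoa4, 5.03 for Slc11a2 and 0.696 for Slc40a1. The order below the ferritins thus differed: the ferritin receptor came next in platelets and the phagosomal transporter in PBMCs. Ranges of neighbours in these orders overlapped over the 15 libraries of a tissue, except between the ferritins and the member below them.

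Platelet libraries held more ferritin mRNA than PBMC libraries by more than the spread between libraries. Across all 30 libraries, 6 of the 9 members passed an adjusted P of 0.05 in edgeR's quasi-likelihood test (Benjamini-Hochberg), against 81.0% of the 16498 genes tested. Of these, 4 were higher in platelets (35.8% of all genes) and 2 were lower (45.2%). On one scale set over both tissues, Fth1 averaged 15450.3 ± 6575 CPM in platelets and 958 ± 358 in PBMCs (SD, n = 15 each), a log2 difference of 4.02 (SE 0.25), and the ranges did not overlap. Ftl1 averaged 6677 ± 2867 CPM in platelets against 685 ± 638 (log2 difference 3.48, SE 0.29), with PBMC O library 1 reaching into the platelet range. Ncoa4, at 234 ± 227 CPM in platelets and 84.7 ± 167 in PBMCs, was higher by 1.91 on the log2 scale (SE 0.39). The difference for Ncoa4 was 2.64 within the C group and 2.43 within the S group, but 0.83 within the O group, where it did not pass (adjusted P = 0.458). Hmox2 was higher in platelets by a smaller step, 26.9 ± 6.63 CPM against 19.3 ± 1.85 (log2 difference 0.48, SE 0.10).

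Both members of the NRAMP family were lower in platelets, with no overlap between the tissues. The share of all genes without such overlap was not counted, and 45.2% of all genes were lower in platelets at an adjusted P of 0.05. Slc11a1 averaged 10.7 ± 6.85 CPM in platelets and 69.4 ± 11.6 in PBMCs (log2 difference -2.71, SE 0.23), and Slc11a2 6.53 ± 2.09 against 20.9 ± 1.26 (log2 difference -1.70, SE 0.12). The other 3 members did not pass. Slc40a1 differed by -0.37 (SE 0.46, adjusted P = 0.467) and Hmox1 by -0.27 (SE 0.15, adjusted P = 0.0888). Hmox1 did pass without library 2 of C platelets (-0.41, adjusted P = 0.00394). Tfrc differed by -1.10 (SE 0.55, adjusted P = 0.0656) over all 30 libraries. Without both libraries numbered 1 of the O group it was lower in platelets by 1.34 on the log2 scale with a smaller error (log2 difference -1.34, SE 0.18, adjusted P = 1.27e-07). Leaving out any 1 of the other 4 PBMC libraries of the O group, or platelet O library 1 alone, also brought Tfrc past the threshold (-2.03 to -1.21). Both fractions came from the same blood by the methods, but the labels do not say that pools of the same number held the same mice, and only in the O group did all pool sizes match. With the number as a replicate block, Hmox1 (-0.34, adjusted P = 0.0207) and Tfrc (-1.48, adjusted P = 2.79e-07) passed. The median log2 difference of all genes was -0.17, and removing the hemoglobin genes moved it to 0.00 and turned no direction among the 6 that passed. That removal leaves all other red cell RNA in place. Median hemoglobin shares were 22.3%, 13.6% and 17.2% in C, S and O platelets and 4.64%, 5.10% and 18.2% in C, S and O PBMCs. The part of red cell RNA in the differences between tissues was not tested.

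**Figure D2:**
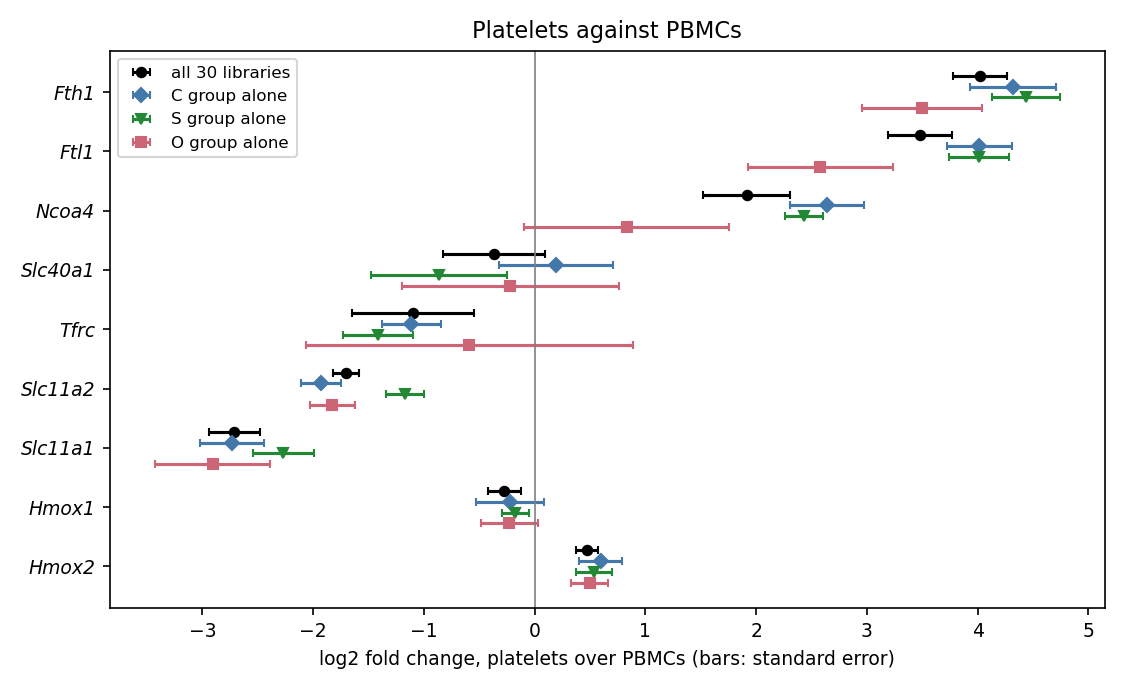
Log2 fold change of platelets over PBMCs for each member, with bars of 1 SE, from all 30 libraries and from the C, S and O groups alone. Fth1 and Ftl1 lie to the right in every group and Slc11a1 and Slc11a2 to the left, while Ncoa4 in the O group alone (0.83) has an error wider than its value.

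Group comparisons within a tissue were weak after correction. No member passed an adjusted P of 0.05 in any of the 6, where 0.00754% of all genes passed for S against C in platelets, 0.033% for S against C in PBMCs and 0.0% in the 4 comparisons with the O group. The study took genes with a P under 0.05, and its methods do not say outright whether that P was adjusted. At an unadjusted P under 0.05, here "called", 1 member was called for S against C in platelets (6.42% of all genes) and none for S against C in PBMCs (2.64%). For S against O, 2 members were called in platelets (13.9%) and 4 in PBMCs (12.2%). For O against C, 2 were called in platelets (4.79%) and 4 in PBMCs (11.9%). An exact two-sided permutation test of mean log2 CPM over the libraries, added after the data were seen, gave P under 0.05 for 7 of the 54 member comparisons, and 5 against 5 libraries cannot go below 0.00794. That test took no account of library numbers. It was run on the members only, so no share of all genes can be set beside the 7. Within a tissue, any 2 of the 3 comparisons share the 5 libraries of 1 group, so their values are given side by side and are not separate evidence.

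Fth1 in platelets was 14274, 15999.8, 9283, 8815 and 6678 CPM in C libraries 1 to 5, 11343, 11354, 16454, 7837 and 6038 in the S group, and 6537, 16052, 7018, 8768 and 3511 in the O group. The groups overlapped, although O library 5 was the lowest of the 15, and no comparison was called. In PBMCs the values were 879, 1675, 891, 1571 and 1496 CPM in the C group, 1343, 1310.4, 1202, 1387 and 1067 in the S group, and 3165, 1448, 1409, 2591 and 907 in the O group. O libraries 1 and 4 exceeded every other PBMC library and the remaining 3 lay within the C range. O against C gave a log2 fold change of 0.55 (SE 0.33) for Fth1, which was not called, 0.29 without library 1 and -0.05 without both of those libraries, neither of them called. The platelet marker sums of O libraries 1 and 4 were 12991 and 8250 CPM, where the other 13 PBMC libraries spanned 1148 to 6545, and the part of platelet RNA in their Fth1 level was not tested. Without the lowest O library, number 5, O against C (0.72) and S against O (-0.76) were called. With all libraries, S against O was -0.59 and not called, but was called by DESeq2 (-0.59) and by edgeR without the filter (-0.56).

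Ftl1 was the ferritin chain called in PBMCs. Its level there was 494, 684, 527, 708 and 680.5 CPM in C libraries, 736, 736, 705, 579 and 593 in S libraries and 4259.5, 1007, 885, 3121 and 553 in O libraries. In 4 of the 5 O libraries the level lay above every C and S library, and library 5 lay within the C range and below the S range. O against C gave a log2 fold change of 1.66 (SE 0.51, adjusted P = 0.339) and S against O -1.54 (SE 0.50, adjusted P = 0.318), and both were called. The exact permutation test gave P = 0.0317 for O against C and P = 0.0714 for S against O. Without O library 1 the fold changes were 1.17 and -1.05, both called, and without libraries 1 and 4 they were 0.40 and -0.28 and were not. O libraries 1 and 4 had the highest sums of erythroid markers (510917 and 274441 CPM), platelet markers and neutrophil markers among the PBMC libraries, and the part of each in their Ftl1 level was not tested. In platelets Ftl1 was 6689, 4444, 3461, 3666 and 2905 CPM in the C group, 4162, 4589, 6608, 2934 and 2748 in the S group and 9498, 5061, 3058, 4214 and 1475 in the O group. The O group held both the highest and the lowest platelet value, and no platelet comparison was called.

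The balance of the ferritin chains set 3 libraries apart. Counts of Fth1 divided by counts of Ftl1 had a median of 2.40, 2.49 and 2.29 in C, S and O platelets and of 2.20, 1.80 and 1.44 in C, S and O PBMCs. O library 1 had a ratio of 0.688 in platelets, where the other 14 spanned 2.08 to 3.60. In PBMCs, O library 1 had a ratio of 0.743 and O library 4 one of 0.83, where the other 13 spanned 1.44 to 2.45. Light chain counts exceeded heavy chain counts only in these 3 of the 30 libraries. All 5 O ratios in PBMCs (0.743 to 1.64) lay below all C ratios (1.69 to 2.45) and all S ratios (1.70 to 2.40). The ratio was chosen after its values were seen, so this is a description and no test is given. In platelets the O ratios overlapped those of both other groups. The 3 libraries with more light than heavy chain counts had the highest neutrophil marker sums of their tissue. They also had its highest erythroid marker sums and hemoglobin shares. C platelet libraries with up to 27.6% hemoglobin counts kept ratios of 2.13 or more, and the part of neutrophil or red cell RNA in the ratio was not tested. Copies of the ferritin genes took few reads: Ftl1-ps1, annotated as protein coding and the closest copy, had 1.73% to 2.90% as many counts as Ftl1, and reads shared between such copies could have been assigned to either or dropped.

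**Figure D3:**
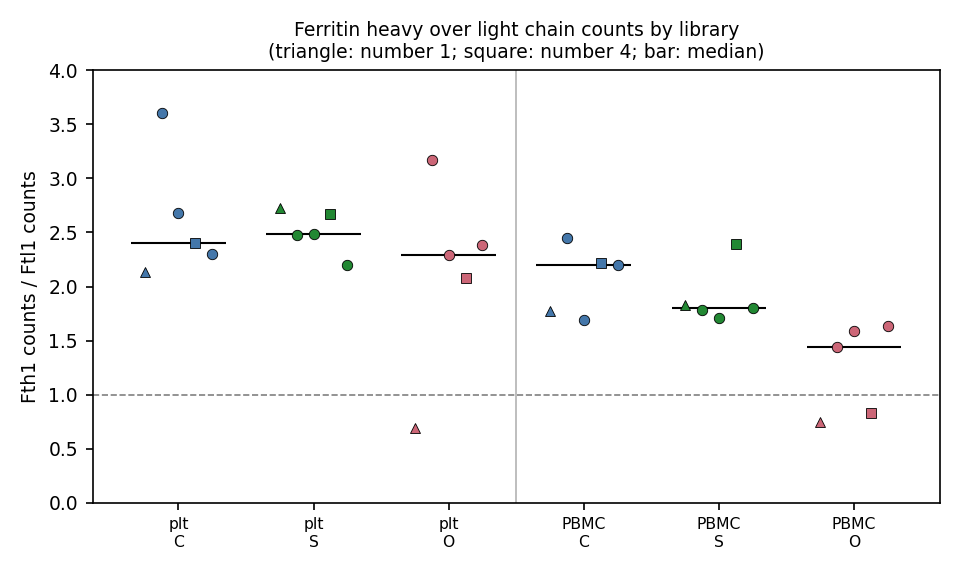
Counts of Fth1 divided by counts of Ftl1 in every library, by group within platelets and PBMCs, with bars at the group medians. O library 1 of both tissues (0.688 and 0.743) and O library 4 of PBMCs (0.83) are the only points below 1.

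Ncoa4, which delivers ferritin to the lysosome, was the only member whose groups did not overlap in a group comparison within a tissue. Overlap was checked for the members only, so no share of all genes can be set beside this. In PBMCs it was 49.96, 45.7, 49.9, 48.8 and 50.7 CPM in C libraries, 51.9, 59.7, 60.6, 48.0 and 51.5 in S libraries and 1151, 76.2, 61.7, 204 and 53.9 in O libraries. Every O library exceeded every C library, though library 5 by only a few CPM. O against C was called at 2.65 (SE 0.83, adjusted P = 0.339), and the exact permutation test gave P = 0.00794, the smallest it can give here. Without O library 1 the log2 fold change was 1.01 (SE 0.34), and without libraries 1 and 4 it was 0.38 (SE 0.10), still called and much smaller. Under the replicate block it was 1.42 (SE 0.67) and not called. S against O was called at -2.50 (SE 0.82, adjusted P = 0.318, exact permutation P = 0.0317). It was called without library 1 (-0.86) but not without both (-0.23) or under the replicate block (-1.26). S against C gave 0.16 (SE 0.075), not called, and 0.20 without S library 4, called. In platelets Ncoa4 was 209.7, 75.5, 44.4, 145 and 174 CPM in the C group, 87.3, 110.2, 112, 93.4 and 171 in the S group and 712, 91.9, 119, 96.1 and 85.3 in the O group. O library 1 was the highest of the 15, and O against C moved from 0.74 to -0.41 without it, neither of them called. Hemoglobin took 6.52% to 24.5% of counts in O PBMCs against 3.29% to 9.39% in C PBMCs, and the part of red cell RNA in the difference for Ncoa4 was not tested.

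Slc40a1, the exporter, was low in most libraries and high in a few. In PBMCs it was 21.4, 3.18, 5.70, 9.37 and 3.31 CPM in the C group, 12.9, 6.70, 6.27, 52.8 and 4.03 in the S group and 80.6, 5.44, 2.99, 68.7 and 3.30 in the O group. S library 4 and O libraries 1 and 4 exceeded 50 CPM, and the other O libraries spanned 2.99 to 5.44. O against C gave 1.87 (SE 1.00), not called, 1.20 (SE 0.96), not called, without O library 1, and -1.15 (SE 0.63), not called, without O libraries 1 and 4, where S against O was called at 2.09 (SE 0.83). Leaving out 1 library also made calls: without C library 1, O against C was 2.56 and S against C 1.65, and without O library 3 or 5, O against C was 2.18 or 2.17. Across PBMC libraries the level of Slc40a1 was most like that of Cxcr2, a neutrophil chemokine receptor, and Steap4, a metalloreductase (Pearson r of 0.982 and 0.974 over 15 libraries). Cxcr2 was 42.1, 5.28, 13.3, 37.1 and 9.03 CPM in C PBMCs, 24.6, 13.1, 14.1, 182 and 8.39 in S PBMCs and 185, 11.7, 7.63, 245 and 9.89 in O PBMCs. The same 3 libraries were highest for both genes. Their neutrophil marker sums were 3723 CPM in S library 4, 7326 in O library 1 and 5702 in O library 4, against 409.6 to 2366 in the C group, and the part of neutrophil RNA in the level of Slc40a1 was not tested.

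In platelets Slc40a1 was 7.17, 3.63, 5.54, 1.92 and 2.45 CPM in C libraries, 3.02, 3.21, 1.91, 3.64 and 5.83 in S libraries and 35.3, 7.04, 5.45, 4.84 and 3.91 in O libraries. Library 1 of the O group, with the highest neutrophil sum, was the one value above the C range. O against C was called at 1.40 (SE 0.61, adjusted P = 0.910, exact permutation P = 0.151) and not without that library (0.35, SE 0.36), without O libraries 1 and 4 (0.43) or without C library 2, 3, 4 or 5 (1.22 to 1.53). S against O was called at -1.63 (SE 0.59, adjusted P = 0.302, exact permutation P = 0.0397) and not without O library 1 (-0.62, SE 0.29) or without libraries 1 and 4 (-0.67).

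**Figure D4:**
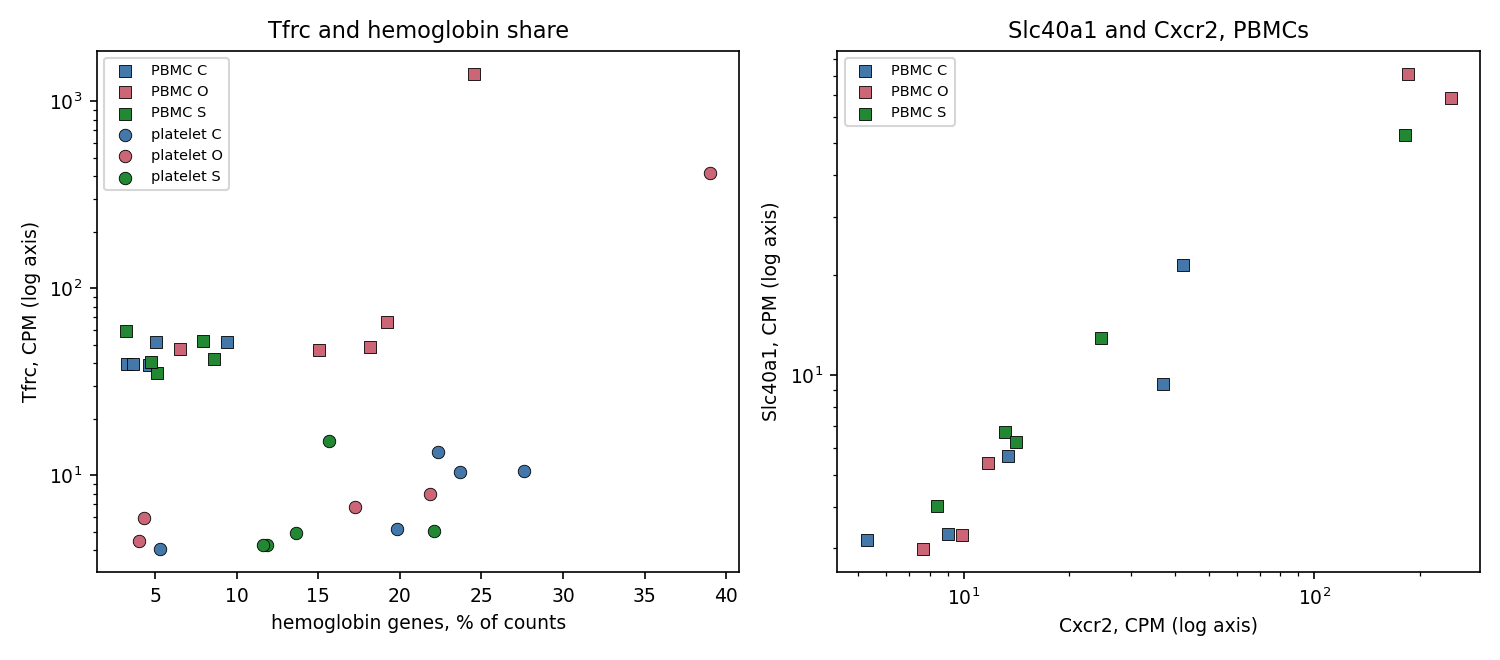
Left, Tfrc in CPM against the share of counts from hemoglobin genes in all 30 libraries. Right, Slc40a1 against Cxcr2 in CPM in the 15 PBMC libraries (log axes). The highest Tfrc of each tissue is in O library 1 (414 and 1393 CPM), and the libraries with over 50 CPM of Slc40a1 are the 3 with the most Cxcr2.

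Tfrc was highest in library 1 of the O group in both tissues. In platelets it was 13.3, 4.06, 5.15, 10.5 and 10.6 CPM in the C group, 4.24, 5.03, 4.92, 4.26 and 15.2 in the S group and 414, 4.45, 7.91, 5.95 and 6.81 in the O group. In PBMCs it was 39.5, 51.9, 51.5, 39.3 and 38.9 CPM in the C group, 35.5, 52.1, 42.0, 59.0 and 40.6 in the S group and 1393, 48.8, 47.0, 65.8 and 47.6 in the O group. O library 1 was 65.0 times the median of the other O libraries in platelets and 28.9 times in PBMCs. Log2 fold changes of O over C were 3.30 in platelets (SE 1.26, adjusted P = 0.910) and 2.85 in PBMCs (SE 1.03, adjusted P = 0.353), and those of S over O were -3.68 (adjusted P = 0.296) and -2.79 (adjusted P = 0.341), all called. Exact permutation tests on the libraries gave P = 0.810, 0.0794, 0.429 and 0.151 for the same 4 comparisons. Without O library 1 the 4 log2 fold changes were -0.47, 0.24, 0.04 and -0.19, and none was called. The replicate block gave -0.80 for S against O in PBMCs, not called. Platelet O against C was also not called without C library 3 (3.16). A library of the S group decided another value: without S library 5, S against C in platelets went from -0.37 to -0.93 and was called. C platelets with up to 27.6% hemoglobin counts held at most 13.3 CPM of Tfrc. O library 1 had the highest hemoglobin share, and also the highest level of Slc4a1, the red cell anion exchanger, at 6915 CPM in platelets and 17399 in PBMCs. The part of red cell RNA in its Tfrc level was not tested.

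**Figure D5:**
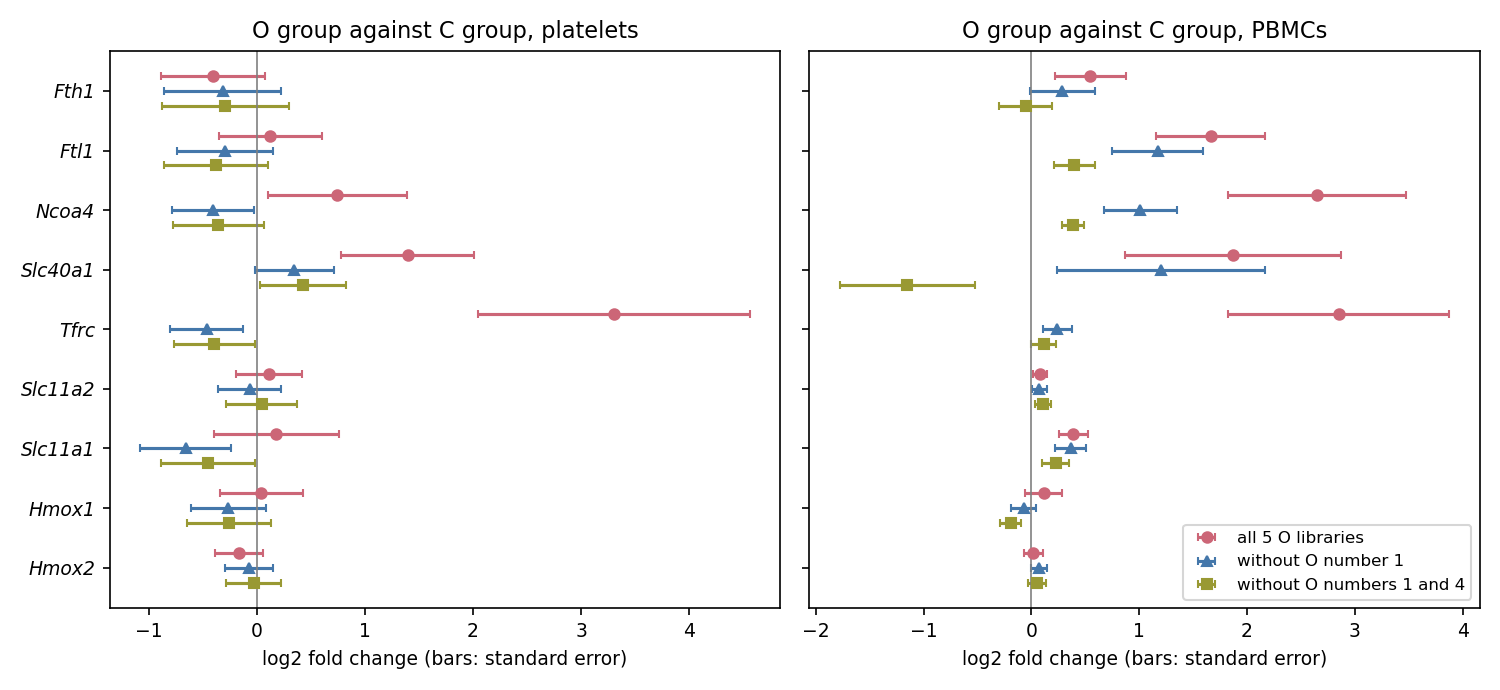
Log2 fold change of O over C for each member in platelets and in PBMCs, with bars of 1 SE, from all 5 O libraries, without O library 1 and without O libraries 1 and 4. Tfrc in PBMCs moves from 2.85 to 0.24 to 0.11, Ftl1 from 1.66 to 1.17 to 0.40, and Ncoa4 from 2.65 to 1.01 to 0.38.

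Slc11a2 was the single member called for S against C in platelets. It was 4.56, 2.31, 3.01, 4.70 and 3.03 CPM in C libraries, 5.57, 4.82, 6.39, 3.27 and 7.39 in S libraries and 5.91, 2.25, 4.48, 2.92 and 3.79 in O libraries. In 4 of 5 S libraries it exceeded every C library, and S library 4 lay among the C values. Platelet counts behind these levels ran from 40 to 142 per library. Lymphocyte markers were also higher in some S libraries: in platelets the 11 T cell markers summed to 223 to 259 CPM in the C group and 252 to 365 in the S group, the 10 B cell markers to 1216 to 1406 and 1267 to 2346, and the 8 NK cell markers to 57.1 to 104 and 59.7 to 135. Across S libraries 1 to 5 the T cell sums were 324, 252, 312, 261 and 365 CPM. S library 5 had the highest T and B cell sums and the highest Slc11a2. C library 4, with the highest Slc11a2 of the C group, had its lowest T cell sum (223 CPM). O library 1 had the lowest T, B and NK cell sums of the 15 (138, 695 and 37.9 CPM) and the highest neutrophil sum (3756 CPM), with Slc11a2 at 5.91 CPM. The part of leukocyte RNA in the difference was not tested. The means were 5.49 ± 1.57 and 3.52 ± 1.05 CPM (SD, n = 5). The log2 fold change was 0.63 (SE 0.27, adjusted P = 0.760, exact permutation P = 0.0476). It was not called when any 1 of S libraries 1, 3 and 5 or C libraries 2, 3 and 5 was left out (0.49 to 0.62). Under the replicate block it was 0.63 (SE 0.29) and not called. S against O was 0.50 and not called, but was called without O library 1 (0.65, exact permutation P = 0.0635) or without S library 4 (0.66). Without O libraries 1 and 4 it was 0.58 and not called. In PBMCs Slc11a2 spanned 29.2 to 35.2 CPM over all 15 libraries and no comparison was called.

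Slc11a1 showed its difference in PBMCs. It was 84.6, 84.0, 102, 119.8 and 92.2 CPM in the C group, 81.6, 94.7, 111, 109.8 and 97.4 in the S group and 135, 123, 118, 158 and 98.0 in the O group. Libraries 1, 2 and 4 of the O group lay above every C and S library. The 13 monocyte and macrophage markers summed to 4899 to 6548 CPM in the C group, 3130 to 5934 in the S group and 5488 to 7164 in the O group of PBMCs, O libraries 1 and 4 had the high neutrophil sums given above, and the part of either in the level of Slc11a1 was not tested. O against C was called at 0.39 (SE 0.13, adjusted P = 0.346, exact permutation P = 0.0476), was called without O library 1 (0.36) and was not without libraries 1 and 4 (0.23). S against O was called at -0.35 (SE 0.13, adjusted P = 0.341, exact permutation P = 0.0397) and without library 1 (-0.33), and was not without library 4 (-0.26) or both (-0.19). In platelets Slc11a1 was 10.7, 3.16, 7.87, 5.76 and 3.22 CPM in the C group, 9.34, 5.73, 10.4, 2.98 and 12.03 in the S group and 20.4, 4.39, 6.50, 2.47 and 2.38 in the O group. S against O was 0.20 with all libraries and was called at 1.00 (SE 0.40) without O library 1, where the exact permutation test gave P = 0.0873. Without O libraries 1 and 4 it was 0.83 and not called. Platelet T cell marker sums were 252 to 365 CPM in the S group and 138 to 225 in the O group, without overlap. The monocyte and macrophage markers had a median sum of 1746 CPM (1075 to 2702) in S platelets and 1184 (608 to 2291) in O platelets, and the part of leukocyte RNA in this difference for Slc11a1 was not tested.

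The heme oxygenases differed little between groups. Hmox1 in PBMCs was 33.1, 33.2, 30.1, 39.9 and 34.7 CPM in C libraries, 29.5, 25.4, 28.7, 32.4 and 33.3 in S libraries and 55.4, 28.0, 32.6, 40.3 and 29.2 in O libraries. S and C overlapped, with a log2 fold change of -0.18 (SE 0.090) that was not called (exact permutation P = 0.0635). With libraries of the same number treated as pairs, in a replicate block, the same value of -0.18 was called (adjusted P = 0.999), as were those without S library 4 or 5 or C library 3 (-0.23 to -0.21). S against O was -0.31, not called, and was called without O library 2 (-0.39). In platelets Hmox1 spanned 5.61 to 23.4 CPM, with no comparison called. Hmox2 lay at 25.2 to 34.4 CPM in PBMCs and 11.2 to 29.7 in platelets, with log2 fold changes from -0.17 to 0.07 over the 6 comparisons, none called.

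Whether a response differed between platelets and PBMCs was tested by an interaction. The difference for S against C was called for Slc11a2, at 0.62 (SE 0.25), against 6.8% of all genes, and not called without S library 5 (0.47) or C library 2 (0.47) of platelets. For O against C it was called for Ftl1, at -1.43 (SE 0.68), against 5.35%. Leaving out PBMC O library 1 gave -0.97, not called, and 12 further single libraries also ended that call. For S against O, 12.3% of all genes and no member were called, but edgeR without the filter on low counts called 3 members, and DESeq2, which was also run without that filter, called 2. Adjusted P values passed for none of these 3 tests. Without both libraries numbered 1 of the O group, 4 members were called for S against O (Ftl1, Slc11a1, Slc11a2 and Ncoa4) and 3 for O against C (Ftl1, Slc11a1 and Ncoa4). At that setting 2499 of 16219 genes were called for S against O and 1335 of 16147 for O against C.

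Genes of the wider iron and heme pathways were counted in 7 lists of 96 genes. For O against C in PBMCs, 27 of 83 tested were called higher and 3 lower, where 11.9% of all genes were called, with a median log2 fold change of 0.21 against 0.00 for all genes. Without O library 1 this was 20 higher and 3 lower of 84 (10.5% of all genes called), and without libraries 1 and 4 it was 17 higher and 3 lower (9.08%). No listed gene passed the adjusted P. Heme synthesis led, with 9 of 14 called higher and a median of 1.46, then 5 of 14 with a median of 0.38 without library 1 and 5 with 0.11 without both. Alas2, the erythroid first enzyme of heme synthesis, gave 2.85 (SE 0.69), and 1.64 without libraries 1 and 4. Tspo2, an erythroid membrane protein, gave 4.14, and 1.64 without both. Blvrb, which reduces biliverdin in red cells, gave 3.69, and 1.04 without both. Of the heme transporters, 3 of 8 were called higher, among them Slc48a1, which moves heme out of the lysosome (2.16, and 1.08 without both), and the exporter Flvcr1 (0.31, and 0.31 without both).

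Of the iron-sulfur cluster assembly genes 5 of 20 were called higher and 1 lower in PBMC O against C, as without O libraries 1 and 4, led by Isca1 (2.27, and 1.27 without both) and Glrx5 (2.82, and 1.10 without both). Of the regulators and targets of NRF2 and BACH1, which control the ferritin and Hmox1 genes, 5 of 16 were called higher, 3 without library 1 and 1 without both. Among the 5 were Mafk (0.65, and 0.50 without both) and Bach1 itself (0.27, and 0.16 without both, not called). In iron uptake and transport, 2 of 16 were called higher and 2 lower, the lower being Slc39a14, an importer of free iron (-0.39), and the ferrireductase Cybrd1 (-1.12). Iron sensing had 2 of 6 called higher, Hfe2 (5.73) and Fbxl5 (0.60), and none without O libraries 1 and 4, where Fbxl5 was 0.19. Hfe2, a BMP coreceptor, was 109.8, 1.00, 0.865, 40.2 and 0.444 CPM in the 5 O PBMC libraries, high in libraries 1 and 4, and gave 0.44 without both. Heme degradation had 1 of 3, Blvrb. The heme synthesis list shares 2 of its 14 genes with the erythroid markers, hemoglobin shares were higher in O PBMCs as given above, and the part of red cell RNA in these counts was not tested.

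In platelets the lists gave 9 higher and none lower of 78 for O against C (4.79% of all genes), 4 of them in heme synthesis (median 0.92 of 13). Without O library 1 they gave 4 higher and 4 lower (4.38% of all genes called), with a heme synthesis median of -0.40, and without libraries 1 and 4 they gave 1 higher and none lower (3.13%). Named by the smallest P were Hfe2 (5.69), Bach1 (0.63) and the heme synthesis enzymes Cpox (1.93) and Alad (2.47). Without O library 1, Alad was 0.12 and not called and Cpox was 0.40. Without libraries 1 and 4, Bach1 alone of these was called (0.61), with Hfe2 at 1.11 and Cpox at 0.36. S against C in platelets had 2 higher (Mcoln1, an endolysosomal channel, at 0.68, and Gapdh, which was high in 1 S library) and 1 lower of 77 (6.42% of all genes), and in PBMCs none of 82 (2.64%). S against O had 3 higher and 12 lower of 78 in platelets (13.9% of all genes), then 9 and 5 without O library 1 (14.9%) and 4 and 4 of 79 without libraries 1 and 4 (11.5%). In PBMCs it had 2 higher and 28 lower of 82 (12.2%), then 1 and 19 of 83 without O library 1 (9.66%) and 5 and 19 without both (8.42%). Between the tissues, 37 of 85 were higher in platelets and 26 lower at an adjusted P of 0.05 (35.8% and 45.2% of all genes), with 13 of 20 iron-sulfur genes higher and 10 of 17 uptake genes lower. Of the 16 NRF2 and BACH1 regulators and targets, 8 were higher and 3 lower in platelets, with a median log2 difference of 0.22. The 3 with the smallest P were Srxn1 (4.04), Gpx4 (3.70) and Gclm (3.04), which serve peroxide defence and glutathione synthesis and were higher in platelets.

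Some members had close companions over the 15 libraries of a tissue, by Pearson r of log2(CPM + 1), given as a description because libraries share red cell content and depth. Ftl1 was most like its copy Ftl1-ps1 (r of 0.991 in platelets and 0.988 in PBMCs), and Ncoa4 most like Gm6768, a processed pseudogene (0.991 and 0.997). Such copies can share reads with the gene. Slc11a1 was most like Rnf149 (0.982) and the TNF receptor Tnfrsf1a (0.960) in PBMCs. Fth1 in platelets was most like 1110032A03Rik (0.983), with the platelet tetraspanin Cd9 first (0.986) once O library 1 was left out. For Slc40a1 in PBMCs, Cxcr2 and Steap4 stayed nearest without that library (0.980 and 0.979).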

How the data were processed

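Poly-A RNA from pooled blood of 30 samples was sequenced, and raw read counts per gene, 1 table per tissue, were deposited by the authors. The submitters' processing notes name HISAT2 2.0.5, featureCounts 1.5.0-p3 and DESeq2 1.16.1, and the mm9 build. Ensembl identifiers were matched to GENCODE M21 (GRCm38) for symbols, lengths and positions, since 54495 of 54532 were found there. The counting strand is not given in the sources used here. Platelet samples carry a PBMC tag under cell type, and were grouped by title and source.

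Genes were filtered with filterByExpr (minimum count 10, total 15), scaled by TMM, and tested in edgeR 4.0.16 (R 4.3.3) by a two-sided quasi-likelihood F test on each pair of groups, with Benjamini-Hochberg adjustment over all genes tested. The SE is the log2 fold change divided by the root of F. CPM within a tissue used TMM over its 15 libraries. Replicates are pools of mice, so P values measure the spread between pools. Libraries of the same number deviated together in PBMCs for S and C (r 0.269 to 0.559) and S and O (0.109 to 0.389), so their blocked values are given beside results they change. In other pairs of groups the numbers did not pass that check.

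Alternatives were DESeq2 1.42.0, RLE factors, no filter, a replicate block, a fit of all 3 groups, removal of hemoglobin genes, and leaving out each library. Leaving out O libraries 1 and 4, and an exact permutation test of mean log2 CPM over libraries, were added after seeing the data. In simulated counts, edgeR recovered 42 of 100 genes with a log2 change of 1 in platelets and 79 of 99 in PBMCs. The members and lists were chosen with earlier results of these data known. Named genes are the members, the genes of each list past an adjusted P of 0.05 (at most 3) or otherwise the 2 with the smallest P, and the 2 genes most like each member. Other named genes (Slc4a1 and Cxcr2 levels) were chosen after their values were seen. Of the listed genes named by this rule, 1 is not reported here.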

Additional observations from a re-analysis of the deposited data

Results flagged for a closer look

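In each group of 5 libraries the highest and lowest value of every member was tested against the rest by Dixon's criterion (0.71 for 5 values), and 10 of 54 groups had a library that stood out. For normally distributed values chance does so in about 1 group in 20, and CPM values are often skewed. In 7 of the 10, it was library 1 of the O group, always as the highest: Tfrc at 1393 CPM in PBMCs (next 65.8) and 414 CPM in platelets (next 7.91), Ncoa4 at 1151 CPM in PBMCs (next 204) and 712 CPM in platelets (next 119), Slc40a1 at 35.3 CPM in platelets, Slc11a1 at 20.4 CPM in platelets and Hmox1 at 23.4 CPM in platelets. These values come from 2 libraries, so they are not 7 separate events. The other 3 were Slc40a1 in S library 4 of PBMCs, at 52.8 CPM (next 12.9), Tfrc in S library 5 of platelets, at 15.2 CPM (next 5.03), and Hmox2 in C library 3 of platelets, at 29.7 CPM (next 18.2).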

How the results depend on the processing

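Over the alternatives, 1145 of 1295 values of single members kept their direction and their side of the threshold, 48 kept the direction and lost the call, 29 gained one and 73 changed sign. Counts of members called moved as follows, and the cause was not tested beyond what each setting removes. The share of all genes called also depends on the setting. In this section it is given only where both small O pools were left out, and elsewhere a moved count is not read as particular to the members. The replicate block gave 0 for platelet S against C, 1 for platelet S against O, 1 for platelet O against C, 1 for PBMC S against C, 2 for PBMC S against O, 2 for PBMC O against C, and 2 for each tissue difference with the O group. In platelets same-numbered libraries did not all deviate together (r from -0.223 to 0.483, with 4 of 5 pairs of O and C over 0.1), and the block ended the Tfrc call for O against C (0.55). Between tissues the block brought Hmox1 (-0.34) and Tfrc (-1.48) past the threshold. DESeq2 gave 0 and 1 for platelet S against O and O against C and 2 for the tissue difference of S against O; it gave no P for 10 member results, 7 of them Tfrc, which are not counted. The platelet calls missing under DESeq2 are such results, with folds close to edgeR's: Slc40a1 (-1.66) and Tfrc (-3.69) in S against O and Tfrc (3.30) in O against C. Leaving out both small O pools gave 0, 0, 1 and 1 for platelet S against O, platelet O against C, PBMC S against O and PBMC O against C. The shares of all genes called there were 11.5%, 3.13%, 8.42% and 9.08% in the same order. For the tissue difference of S against O, where the main count is 0, RLE gave 1, no filter 3, hemoglobin removal 2 and leaving out both libraries of O number 1 gave 4; for that of O against C, no filter gave 2 and leaving out O number 1 gave 3.

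Single libraries moved the counts from 0 to 1 for platelet S against C, 0 to 2 for platelet O against C, 0 to 2 for PBMC S against C, and 0 to 2, 0 to 5 and 0 to 4 for the tissue differences of S against C, S against O and O against C. Signs changed under the replicate block for Ftl1 in platelet S against O (0.022) and O against C (-0.063), Slc11a1 in platelet O against C (-0.10), Fth1 in PBMC S against C (0.017) and Slc40a1 between tissues (0.19, and 0.19 in the C group alone). Without both small pools they changed in platelet S against O for Ftl1 (0.35), Hmox2 (-0.10), Ncoa4 (0.16) and Tfrc (0.0085), in platelet O against C for Ftl1 (-0.38), Hmox1 (-0.26), Slc11a1 (-0.46), Ncoa4 (-0.36) and Tfrc (-0.39), in PBMC S against O for Fth1 (0.0098) and Slc40a1 (2.09), and in PBMC O against C for Fth1 (-0.053), Slc40a1 (-1.15) and Hmox1 (-0.19). Slc11a2 in PBMC S against C sat at 0 and gave -0.0064 by DESeq2, -0.0070 by RLE, -0.0072 without the filter, -0.011 without hemoglobin genes and -0.0088 with all 3 groups, and Hmox2 in PBMC O against C gave -0.0012 without the filter.

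Leaving out single libraries changed signs within these ranges. In platelet S against C: Fth1 -0.27 to 0.10, Ftl1 -0.24 to 0.18, Hmox1 -0.44 to 0.10, Hmox2 -0.23 to 0.11, Ncoa4 -0.41 to 0.024 and Slc40a1 -0.49 to 0.024. In platelet S against O: Ftl1 -0.38 to 0.25, Hmox2 -0.091 to 0.15, Ncoa4 -1.15 to 0.18, Slc11a1 -0.028 to 1.00 and Tfrc -4.25 to 0.042. In platelet O against C: Ftl1 -0.30 to 0.37, Hmox1 -0.26 to 0.44, Hmox2 -0.24 to 0.074, Ncoa4 -0.41 to 1.01, Slc11a1 -0.66 to 0.49, Slc11a2 -0.065 to 0.27 and Tfrc -0.47 to 3.64. In PBMC S against C: Fth1 -0.15 to 0.077, Slc11a2 -0.030 to 0.021, Slc40a1 -0.20 to 1.65 and Tfrc -0.043 to 0.13. In PBMC O against C: Hmox1 -0.073 to 0.20 and Hmox2 -0.015 to 0.069, and in PBMC S against O Hmox2 -0.012 to 0.075. Slc11a2, Slc40a1 and Slc11a1 had few counts in platelets, which limits what these libraries can show for them.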
